A study of Saccharomyces pastorianus with 18 samples.

Results

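The nuclear RNA polymerases of lager yeast were followed through the messenger RNA of their subunit genes. The members were the annotated genes named RPA, RPB, RPC or RPO with a number, without RPO41, which encodes the mitochondrial enzyme. That rule gave 30 genes of 7568 gene names in the count table, and 60 of its 11979 features, because the table lists an S. cerevisiae copy and an S. eubayanus copy of each. RET1, which encodes the second-largest subunit of polymerase III, falls outside the naming rule and was read separately. All 30 genes passed the low-count filter when the copies were summed, and 58 of the 60 copies passed it when they were kept apart.

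Saccharomyces pastorianus is the hybrid of S. cerevisiae and S. eubayanus used to brew lager. W34/70 9.7 and CBS1538 11.1 were each derived from 1 resistant colony, obtained after cells of W34/70 or CBS1538 had been exposed to 20, 40 or 100 µg/mL of radicicol, which blocks Hsp90, and plated on the amino acid analogues B2TA (75 µg/mL) or PFPA (200 µg/mL). Each strain gave 3 libraries from exponential growth at 20 °C in minimal medium (1% dextrose, 1% maltose and 0.5% ammonium sulfate), 3 from day 4 and 3 from day 2 of unshaken fermentation at 13 °C in 10% wort with 1 mM ZnSO4. Medium, temperature, growth phase and time therefore changed together between minimal medium and wort, and cannot be told apart. For the 3 CBS1538 11.1 day 2 libraries the sample title and the column names give the mutant, whereas the strain field gives the parent, and every comparison with them carries that doubt. Other libraries of the parents were not analysed here. The CBS1538 11.1 comparison of minimal medium with day 4 does not compare with those libraries, although they entered the shared fit.

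Polymerase I transcribes the large ribosomal RNA precursor, polymerase II transcribes protein-coding genes, and polymerase III transcribes transfer RNAs, 5S ribosomal RNA and other short RNAs. Each enzyme has its own large catalytic subunits, a stalk and peripheral subunits, and the 3 enzymes have subunits in common: RPC40 and RPC19 serve I and III, and RPO26, RPB5, RPB8, RPB10 and RPC10 serve all 3. In S. cerevisiae, output of polymerases I and III is known to follow growth and nutrient supply, since both make the RNA of the translation machinery. By these roles the 30 members comprised 7 genes of polymerase I alone, 7 of polymerase II alone, 9 of polymerase III alone, 2 shared by I and III and 5 shared by all.

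The 18 libraries held 5266324 to 19467656 counts. The members took 0.554% to 0.595% of the counts of W34/70 9.7 in minimal medium, 0.236% to 0.340% on day 4 and 0.203% to 0.271% on day 2. In CBS1538 11.1 they took 0.305% to 0.346% in minimal medium, 0.212% to 0.244% on day 4 and 0.197% to 0.242% on day 2. S. eubayanus features held 30.04% to 34.9% of the counts in W34/70 9.7 and 88.0% to 89.4% in CBS1538 11.1. In 2 libraries, W34/70 9.7 day 2 replicate 2 and day 4 replicate 1, S. eubayanus chromosome VII had 1465 and 1417 counts, against 284445 to 396506 in the other W34/70 9.7 libraries. The S. eubayanus copy of RPB9 is the only member copy on that chromosome. Levels below are CPM, counts scaled to the size of each library with TMM factors, changes are log2 fold changes between group means, and a gene was called where edgeR's quasi-likelihood test gave an adjusted p under 0.05, adjusted by Benjamini-Hochberg over all 6633 gene names tested. In these bulk cultures fewer cells carrying a transcript and less of it per cell cannot be told apart.

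Most subunit genes were higher in minimal medium than in wort in both strains. In W34/70 9.7, minimal medium against day 2, 25 of the 30 members were called higher and 2 lower, where 32.8% of all gene names were called higher and 32.1% lower. The members' median log2 fold change was 1.49, and the median over all gene names was -0.01. Scaled to library totals, all gene names shifted to a median of 0.32 and the members to 1.83, 63.1% of all calls were higher in place of 50.5%, and 26 members were called higher and 1 lower. Against day 4, 26 members were called higher and 0 lower (26.1% and 28.6% of all gene names), with a members' median of 1.17 and an overall median of -0.03. In that test edgeR called 0 lower, 1 member was lower at an unadjusted p under 0.05, and DESeq2 called 1 lower, RPO21. In CBS1538 11.1, 24 members were called higher and 2 lower in minimal medium than on day 2 (27.3% and 21.2% of all), and 22 were called higher and 1 lower than on day 4 (25.2% and 23% of all). The medians of the members were 1.31 and 1.15, and those of all gene names were 0. The day 4 and day 2 comparisons of a strain share its minimal-medium libraries. Minimal medium and wort values did not overlap for 27 members (day 2) and 28 members (day 4) in W34/70 9.7, where 72.4% and 68% of all gene names did not overlap. The same held for 26 members in each comparison in CBS1538 11.1, where 51.4% (day 2) and 59% (day 4) of all gene names did not overlap.

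**Figure D1:**
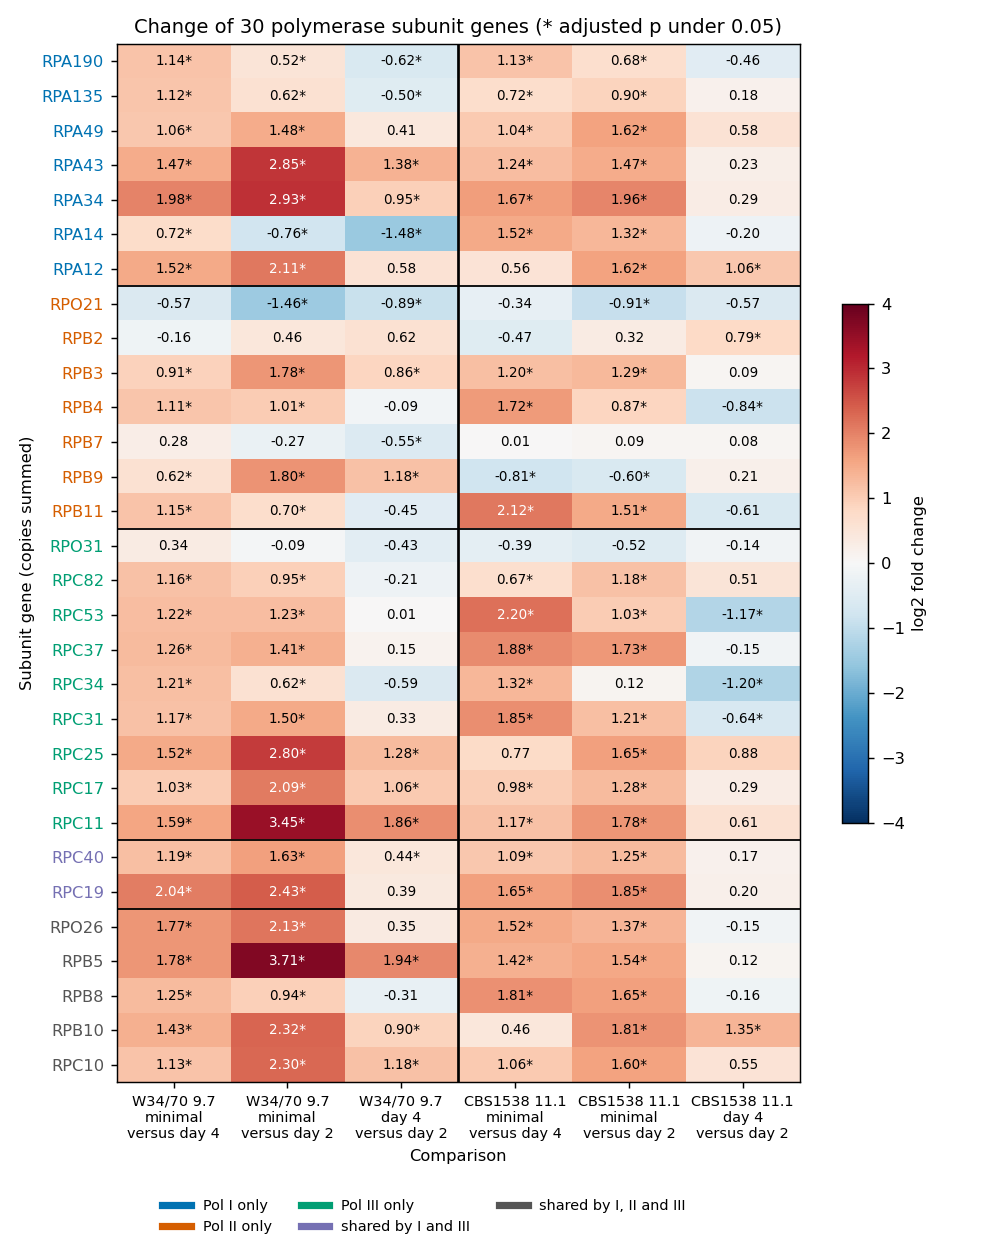
Log2 fold change of each of the 30 subunit genes (rows, copies summed, names coloured by polymerase) in the 6 comparisons within a strain (columns), with an asterisk at an edgeR adjusted p under 0.05. Red is higher and blue lower in the condition named first, from 3.71 for RPB5 to -1.48 for RPA14, and RPO21 is blue in every column.

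The subunits called were counted by polymerase. Of all gene names, 32.8% were called higher and 32.1% lower against day 2 in W34/70 9.7, and 27.3% and 21.2% in CBS1538 11.1. Against day 2, 6 of the 7 polymerase I genes were called higher and 1 lower in W34/70 9.7, and all 7 were called higher in CBS1538 11.1, with medians of 1.48 and 1.47. Of the 9 polymerase III genes, 8 were called higher in W34/70 9.7 and 7 in CBS1538 11.1, with medians of 1.42 and 1.21. The uncalled ones were RPO31 in both strains and RPC34 in CBS1538 11.1. Of the 7 polymerase II genes, 4 were called higher and 1 lower in W34/70 9.7 and 3 higher and 2 lower in CBS1538 11.1, with medians of 0.70 and 0.32. Both genes shared by I and III and all 5 genes shared by the 3 enzymes were called higher in each strain, with medians of 2.03 and 2.30 in W34/70 9.7 and 1.55 and 1.60 in CBS1538 11.1. Against day 4 the counts of polymerase II genes called higher were 4 of 7 in W34/70 9.7 and 3 of 7, with 1 lower, in CBS1538 11.1. Of all gene names 26.1% and 25.2% were called higher there. After removal of the gene-length trend, the polymerase II genes called higher and lower against day 2 were 3 and 2 in W34/70 9.7 and 3 and 3 in CBS1538 11.1. For polymerase I the counts were 6 and 1, and 7 and 0, and for polymerase III 7 and 0, and 6 and 0. These counts describe the classes, and the difference between classes was not tested.

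RPA190, the largest polymerase I subunit, forms the catalytic centre with RPA135. Its level in W34/70 9.7 was 301, 279 and 329 CPM in minimal medium, against 192, 126 and 94.6 CPM on day 4 and 216, 254 and 164 CPM on day 2. The minimal-medium libraries were all above the wort libraries. The change was 1.14 (SE 0.22, edgeR adjusted p = 0.000357) against day 4 and 0.52 (SE 0.22, edgeR adjusted p = 0.0451) against day 2. In CBS1538 11.1 RPA190 had 327, 254 and 333 CPM in minimal medium, against 148, 133 and 136 CPM on day 4 and 191, 209.5 and 172 CPM on day 2, and again the minimal-medium libraries did not overlap with wort. The changes were 1.13 (SE 0.22, edgeR adjusted p = 0.000417) and 0.68 (SE 0.22, edgeR adjusted p = 0.0170). The day 2 calls are close to the threshold. The W34/70 9.7 call against day 2 was lost with DESeq2's size factors (0.42, adjusted p = 0.0977), with DESeq2 (0.42, adjusted p = 0.0942), without the low-count filter (0.40, adjusted p = 0.130) and in a fit of the 2 compared groups alone (adjusted p = 0.0522). It was also lost, at 0.26 to 0.45, without any 1 minimal-medium library and without day 2 replicate 1 or 3 (0.133 to 0.338 for the adjusted p). The CBS1538 11.1 call was lost, at 0.49 to 0.61, without minimal-medium replicate 1 or 3 or day 2 replicate 1 or 3 (0.0519 to 0.132 for the adjusted p).

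RPA135, the second-largest subunit of polymerase I, had 415, 419.5 and 436 CPM in minimal medium, against 202, 209.7 and 173 CPM on day 4 and 288, 280.4 and 258 CPM on day 2 in W34/70 9.7. Minimal medium was above both wort days in every library, with 1.12 (SE 0.17, edgeR adjusted p = 3.20e-05) against day 4 and 0.62 (SE 0.17, edgeR adjusted p = 0.00334) against day 2. CBS1538 11.1 had 350.4, 287 and 412 CPM in minimal medium, against 219, 198 and 221 CPM on day 4 and 161, 229.6 and 173 CPM on day 2, again with no overlap, and with changes of 0.72 and 0.90, both called.

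RPA34 and RPA49 form the heterodimer that aids initiation and elongation by polymerase I. RPA34 had 153, 167 and 177 CPM in minimal medium, against 35.5, 55.5 and 34.7 CPM on day 4 and 23.7, 23.4 and 17.9 CPM on day 2 in W34/70 9.7. Minimal medium was far above wort, and the change against day 2 was 2.93 (SE 0.34, edgeR adjusted p = 1.44e-06). In CBS1538 11.1 RPA34 had 51.4, 94.7 and 28.2 CPM in minimal medium, against 15.9, 16.0 and 22.4 CPM on day 4 and 11.4, 14.2 and 18.6 CPM on day 2, and the change against day 2 was 1.96 (SE 0.34, edgeR adjusted p = 0.000149). The minimal-medium libraries of CBS1538 11.1 spread widely but were all above wort. The partner RPA49 was called higher in all 4 comparisons of minimal medium with wort, by 1.06 and 1.48 in W34/70 9.7 and by 1.04 and 1.62 in CBS1538 11.1, day 4 before day 2.

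RPA43 and RPA14 form the stalk of polymerase I. RPA43, through which the initiation factor Rrn3 binds the enzyme, had 152, 155 and 188 CPM in minimal medium, against 67.8, 65.8 and 44.3 CPM on day 4 and 23.2, 30.6 and 14.4 CPM on day 2 in W34/70 9.7. The 3 conditions did not overlap. Its change against day 2 was 2.85 (SE 0.27, edgeR adjusted p = 1.25e-07). CBS1538 11.1 had 57.2, 55.6 and 41.9 CPM in minimal medium, against 20.0, 19.1 and 26.5 CPM on day 4 and 15.0, 18.1 and 22.4 CPM on day 2, with 1.47 (SE 0.26, edgeR adjusted p = 0.000170) against day 2. Day 4 and day 2 overlapped there. RPA43 and RPA190 are divergent neighbours, with 804 bases between them on S. cerevisiae chromosome XV and 792 on S. eubayanus chromosome VIII in the coordinates of the deposited table. Over the same libraries of W34/70 9.7, RPA43 changed by 2.85 and RPA190 by 0.52 against day 2.

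RPA14 moved differently from its stalk partner. There were 36.4, 47.1 and 57.0 CPM in minimal medium, against 27.8, 31.6 and 25.7 CPM on day 4 and 93.8, 65.7 and 77.8 CPM on day 2 in W34/70 9.7, so day 2 was the highest condition and day 4 the lowest, with no overlap. Minimal medium against day 2 gave -0.76 (SE 0.20, edgeR adjusted p = 0.00298), while minimal medium against day 4 gave 0.72 (SE 0.20, edgeR adjusted p = 0.00548). Scaled to library totals, the day 2 difference was -0.39 and no longer called (edgeR adjusted p = 0.0982). In CBS1538 11.1 RPA14 had 22.1, 26.5 and 28.7 CPM in minimal medium, against 8.03, 9.56 and 9.26 CPM on day 4 and 12.5, 9.58 and 9.02 CPM on day 2, and minimal medium was higher than day 2 by 1.32 (SE 0.21, edgeR adjusted p = 6.82e-05). The strain difference in this change was -2.08 (SE 0.29, edgeR adjusted p = 4.31e-05). The S. cerevisiae copy of RPA14 overlaps a same-strand feature by 8 bases.

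RPA12, the small subunit that takes part in RNA cleavage, was called higher in 3 of the 4 comparisons of minimal medium with wort. W34/70 9.7 had 149, 191 and 149 CPM in minimal medium, against 45.9, 69.4 and 54.7 CPM on day 4 and 44.8, 34.4 and 34.4 CPM on day 2. CBS1538 11.1 had 54.3, 47.0 and 43.0 CPM in minimal medium, against 35.0, 29.7 and 33.1 CPM on day 4 and 10.6, 12.7 and 23.1 CPM on day 2. The W34/70 9.7 minimal-medium libraries lay far above both wort days, whereas in CBS1538 11.1 minimal medium against day 4 gave 0.56 (SE 0.24, edgeR adjusted p = 0.0611), which was not called.

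RPO21, the largest subunit of polymerase II and carrier of its repeated C-terminal domain, was the member furthest on the other side in both strains when minimal medium was set against day 2. W34/70 9.7 had 259.5, 215 and 248 CPM in minimal medium, against 517, 293 and 263 CPM on day 4 and 586, 775 and 623 CPM on day 2. Minimal medium was below day 2 in every library and overlapped with none of them. The change against day 2 was -1.46 (SE 0.24, edgeR adjusted p = 6.38e-05), and against day 4, where replicate 1 stood above the other libraries, it was -0.57 (SE 0.24, edgeR adjusted p = 0.0534). CBS1538 11.1 had 391, 338 and 571 CPM in minimal medium, against 536, 563 and 542 CPM on day 4 and 785, 930.5 and 722 CPM on day 2. Minimal medium lay below day 2 there too, and the change against day 2 was -0.91 (SE 0.24, edgeR adjusted p = 0.00468). The day 4 value of W34/70 9.7 was called lower with DESeq2 (-0.60, adjusted p = 0.0276), with DESeq2's size factors in edgeR (adjusted p = 0.0420), with library totals (-0.67, adjusted p = 0.0310) and without the low-count filter (adjusted p = 0.0429).

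RPB2, which completes the polymerase II active centre, had 188, 138 and 177 CPM in minimal medium, against 261, 158 and 144 CPM on day 4 and 95.7, 144 and 127 CPM on day 2 in W34/70 9.7. CBS1538 11.1 had 137, 104 and 112 CPM in minimal medium, against 143, 165 and 182 CPM on day 4 and 76.8, 125 and 82.5 CPM on day 2. Minimal medium overlapped with both wort days in W34/70 9.7 and with day 2 in CBS1538 11.1, where it lay below day 4. In neither strain was a change between minimal medium and wort called, with values of -0.16 and 0.46 in W34/70 9.7 and -0.47 and 0.32 in CBS1538 11.1. For W34/70 9.7, minimal medium was called higher than day 2 with library totals (0.81, edgeR adjusted p = 0.0167), without the 2 libraries that lack S. eubayanus chromosome VII counts (0.59, edgeR adjusted p = 0.0288) and after removal of the gene-length trend (0.71, edgeR adjusted p = 0.00262). For CBS1538 11.1 it was called higher than day 2 after that removal (0.64, edgeR adjusted p = 0.00794) and lower than day 4 in a fit of the 2 compared groups alone (-0.49, edgeR adjusted p = 0.0215). RPB7, the stalk subunit that contacts the nascent RNA, was not called in any of the 4 comparisons with wort either, and its changes lay between -0.27 and 0.28. Its stalk partner RPB4 was called higher in all 4, by 1.11 and 1.01 in W34/70 9.7 and by 1.72 and 0.87 in CBS1538 11.1.

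RPB3 and RPB11 pair to start the assembly of polymerase II, as RPC40 and RPC19 do for I and III. RPB3 was called higher in all 4 comparisons with wort, at 0.91 to 1.78. RPB11 had 59.1, 75.8 and 59.1 CPM in minimal medium, against 30.8, 27.8 and 28.9 CPM on day 4 and 39.0, 48.0 and 31.98 CPM on day 2 in W34/70 9.7. CBS1538 11.1 had 48.8, 80.0 and 51.9 CPM in minimal medium, against 14.1, 17.8 and 9.74 CPM on day 4 and 25.5, 15.4 and 23.0 CPM on day 2. Minimal medium was above wort in each strain with no overlap, by 0.70 (SE 0.25, edgeR adjusted p = 0.0202) against day 2 in W34/70 9.7 and by 1.51 (SE 0.26, edgeR adjusted p = 0.000133) in CBS1538 11.1. There are 2 annotated features antisense to the S. cerevisiae copy of RPB3 (270 and 149 bases), and 1 each to those of RPC19 (285 bases), RPC34 (99 bases) and RPC53 (557 bases, BUD30). Since the use of strand in counting is not given in the sources used here, reads of these pairs cannot be told apart.

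RPB9, a small polymerase II subunit that acts in transcription fidelity and start-site choice, differed in direction between the strains. W34/70 9.7 had 79.2, 97.7 and 72.4 CPM in minimal medium, against 45.5, 65.1 and 51.5 CPM on day 4 and 26.9, 19.1 and 25.6 CPM on day 2, and minimal medium exceeded day 2 by 1.80 (SE 0.23, edgeR adjusted p = 3.55e-06). CBS1538 11.1 had 49.5, 50.0 and 41.6 CPM in minimal medium, against 61.6, 91.5 and 93.6 CPM on day 4 and 51.0, 83.3 and 78.1 CPM on day 2, and minimal medium against day 2 gave -0.60 (SE 0.22, edgeR adjusted p = 0.0354). The CBS1538 11.1 minimal-medium libraries were all below its wort libraries and those of W34/70 9.7 all above its day 2 libraries. The strain difference in this change was 2.40 (SE 0.32, edgeR adjusted p = 2.71e-05); without the 2 libraries that lack S. eubayanus chromosome VII counts it was 2.26. The CBS1538 11.1 call alone was lost with library totals (-0.54, edgeR adjusted p = 0.0899) and without minimal-medium replicate 2 or 3 or day 2 replicate 2 (-0.64 to -0.46, edgeR adjusted p of 0.0588 to 0.145).

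**Figure D2:**
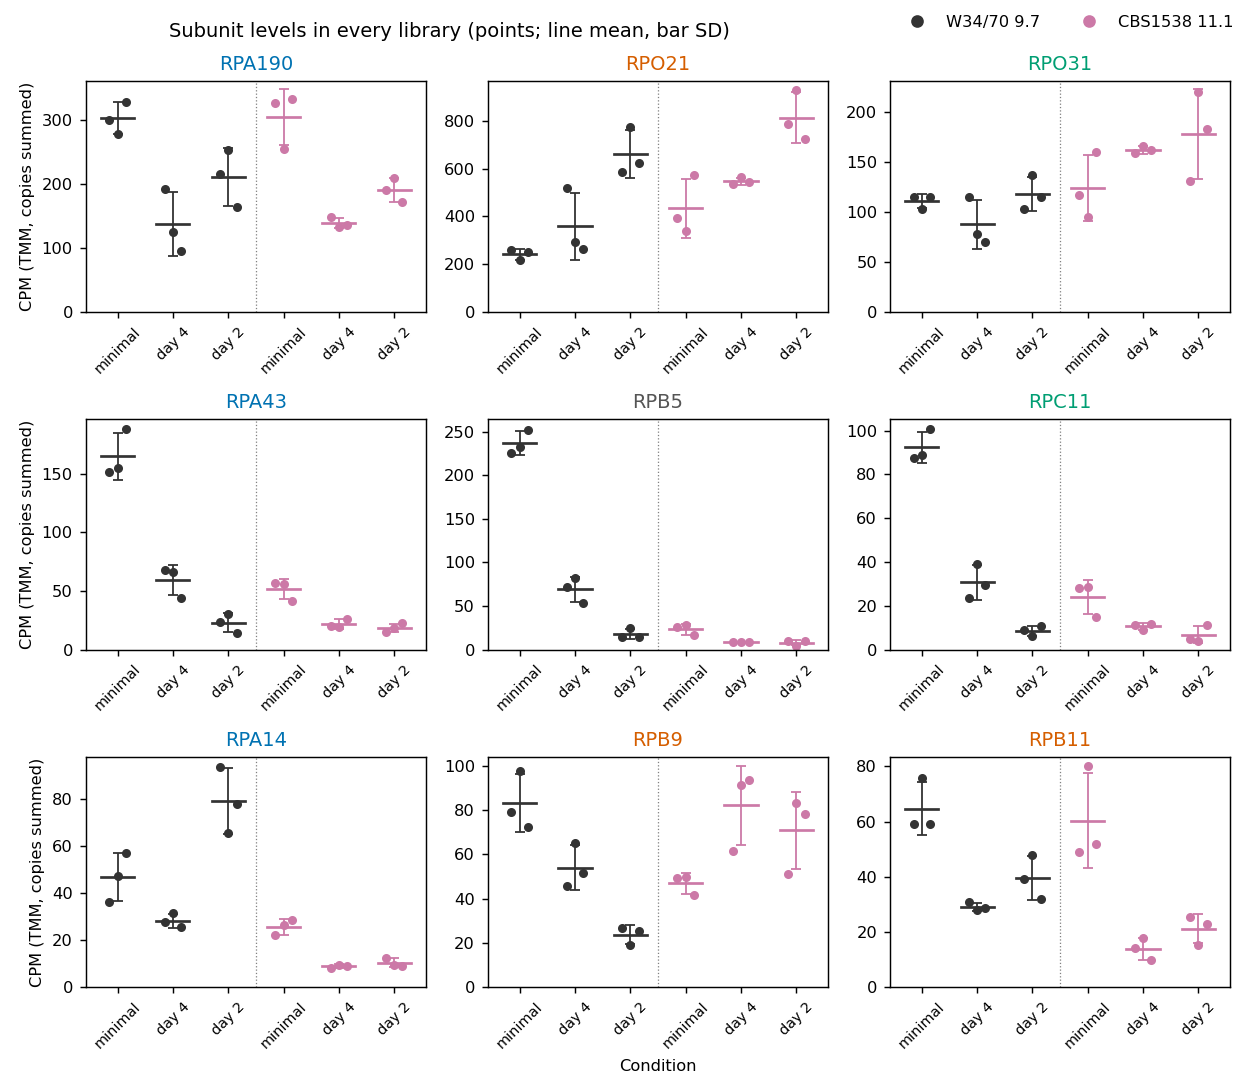
CPM (y axis, TMM-scaled, copies summed) of 9 subunit genes in every library (points), with the group mean (line) and SD (bar, n = 3 libraries), in minimal medium, day 4 and day 2 of W34/70 9.7 (dark) and CBS1538 11.1 (pink). RPB5 averaged 237 CPM in minimal medium of W34/70 9.7 and at most 69.1 CPM in any other group, whereas RPO21 averaged 662 and 813 CPM on day 2 and 241 and 433 CPM in minimal medium.

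RPO31, the largest subunit of polymerase III, was not called between minimal medium and wort in either strain. It had 116, 103 and 115 CPM in minimal medium, against 116, 77.7 and 69.7 CPM on day 4 and 103, 137 and 115 CPM on day 2 in W34/70 9.7. CBS1538 11.1 had 117, 94.9 and 159.6 CPM in minimal medium, against 159, 166 and 162 CPM on day 4 and 131, 220.3 and 183 CPM on day 2. Minimal medium overlapped with wort, and the changes were 0.34 and -0.09 in W34/70 9.7, and -0.39 and -0.52 in CBS1538 11.1. The last value was called lower under 5 other settings, at -0.64 to -0.52, among them DESeq2 (-0.62, adjusted p = 0.0192). The W34/70 9.7 value against day 4 was called higher after the length trend was removed (0.51, edgeR adjusted p = 0.0158) and without the 2 libraries lacking chromosome VII counts (0.59, edgeR adjusted p = 0.0326). RET1, its partner in the polymerase III core, was not called either (0.19 and -0.14 against day 2).

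RPC82, RPC34 and RPC31 form the subcomplex that recruits polymerase III to its initiation factors. RPC82 had 114, 99.8 and 128 CPM in minimal medium, against 57.2, 56.0 and 39.7 CPM on day 4 and 56.7, 73.5 and 46.4 CPM on day 2 in W34/70 9.7. CBS1538 11.1 had 72.1, 50.1 and 62.1 CPM in minimal medium, against 39.1, 36.4 and 40.7 CPM on day 4 and 20.2, 32.2 and 28.6 CPM on day 2. It was higher in minimal medium by 0.95 (SE 0.21, edgeR adjusted p = 0.000887) against day 2 in W34/70 9.7 and by 1.18 (SE 0.22, edgeR adjusted p = 0.000262) in CBS1538 11.1, with no overlap in either strain. RPC31 was called higher in all 4 comparisons (1.17 to 1.85). RPC34 had 51.7, 65.5 and 53.9 CPM in minimal medium, against 22.2, 20.8 and 25.3 CPM on day 4 and 72.4, 39.5 and 45.6 CPM on day 2 in CBS1538 11.1, so minimal medium exceeded day 4 (1.32, called) and overlapped with day 2 (0.12, not called).

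RPC53 and RPC37, which act with RPC11 in termination and reinitiation, were called higher in minimal medium in all 4 comparisons. RPC53 had 39.3, 33.5 and 29.1 CPM in minimal medium, against 3.17, 7.61 and 11.2 CPM on day 4 and 10.6, 17.9 and 20.9 CPM on day 2 in CBS1538 11.1, where the change against day 4 was 2.20 (SE 0.35, edgeR adjusted p = 6.02e-05). RPC37 changed by 1.26 and 1.41 in W34/70 9.7 and by 1.88 and 1.73 in CBS1538 11.1. RPC11, the cleavage subunit, had 87.7, 89.1 and 100.5 CPM in minimal medium, against 23.4, 39.3 and 29.5 CPM on day 4 and 8.76, 5.98 and 10.7 CPM on day 2 in W34/70 9.7. The 3 conditions did not overlap, and the change against day 2 was 3.45 (SE 0.36, edgeR adjusted p = 3.63e-07). CBS1538 11.1 had 28.1, 28.8 and 14.9 CPM in minimal medium, against 11.2, 8.93 and 11.8 CPM on day 4 and 5.06, 4.14 and 11.4 CPM on day 2, where RPC11 changed by 1.78 (SE 0.35, edgeR adjusted p = 0.000450). The stalk genes RPC25 and RPC17 were called higher than day 2 in both strains, RPC25 by 2.80 and 1.65 and RPC17 by 2.09 and 1.28, W34/70 9.7 before CBS1538 11.1.

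Among the subunits common to several enzymes, RPC40 had 266, 264 and 296 CPM in minimal medium, against 111, 142 and 109.6 CPM on day 4 and 99.4, 89.1 and 79.4 CPM on day 2 in W34/70 9.7. CBS1538 11.1 had 137, 126 and 117 CPM in minimal medium, against 63.5, 53.8 and 61.0 CPM on day 4 and 48.6, 48.1 and 62.0 CPM on day 2. Minimal medium did not overlap with wort in either strain, and the changes against day 2 were 1.63 (SE 0.16, edgeR adjusted p = 2.42e-07) and 1.25 (SE 0.16, edgeR adjusted p = 8.03e-06). RPC19 had 210.5, 247 and 232 CPM in minimal medium, against 65.8, 57.0 and 44.4 CPM on day 4 and 42.8, 49.8 and 35.0 CPM on day 2 in W34/70 9.7. CBS1538 11.1 had 101, 97.6 and 78.9 CPM in minimal medium, against 23.0, 27.9 and 37.4 CPM on day 4 and 22.4, 26.1 and 28.4 CPM on day 2. Minimal medium was above wort in every library, and RPC19 changed by more than its partner, by 2.43 (SE 0.21, edgeR adjusted p = 5.98e-08) against day 2 in W34/70 9.7 and 1.85 (SE 0.21, edgeR adjusted p = 2.29e-06) in CBS1538 11.1, a difference between genes that was not tested.

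RPB5, a subunit of all 3 enzymes that lies in the jaw ahead of the active centre, had the largest change of any member between conditions. W34/70 9.7 had 226, 232 and 252 CPM in minimal medium, against 71.7, 82.1 and 53.5 CPM on day 4 and 15.0, 24.3 and 14.7 CPM on day 2. The 3 conditions did not overlap. Minimal medium exceeded day 4 by 1.78 (SE 0.27, edgeR adjusted p = 3.91e-05) and day 2 by 3.71 (SE 0.29, edgeR adjusted p = 2.31e-08). CBS1538 11.1 had 25.8, 27.8 and 16.2 CPM in minimal medium, against 8.96, 8.44 and 8.55 CPM on day 4 and 9.68, 4.50 and 9.96 CPM on day 2, and minimal medium exceeded day 2 by 1.54 (SE 0.29, edgeR adjusted p = 0.000305). All 3 minimal-medium levels of W34/70 9.7 lay far above those of CBS1538 11.1.

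RPO26, another subunit of all 3 enzymes, had 408, 606 and 412 CPM in minimal medium, against 114, 165 and 138 CPM on day 4 and 132, 99.6 and 95.2 CPM on day 2 in W34/70 9.7. CBS1538 11.1 had 193, 227 and 187 CPM in minimal medium, against 70.0, 74.0 and 67.7 CPM on day 4 and 98.6, 53.5 and 82.8 CPM on day 2. Its minimal-medium libraries were above all wort libraries in both strains, and it changed by 2.13 (SE 0.23, edgeR adjusted p = 6.02e-07) and 1.37 (SE 0.23, edgeR adjusted p = 8.79e-05) against day 2. RPB8, RPB10 and RPC10 were called higher than day 2 in both strains as well, at 0.94 to 2.32 in W34/70 9.7 and 1.60 to 1.81 in CBS1538 11.1. RPB10 had 162, 169.7 and 107 CPM in minimal medium, against 114, 102 and 103 CPM on day 4 and 29.9, 34.3 and 60.7 CPM on day 2 in CBS1538 11.1, and its change against day 4 there, 0.46, was not called.

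Levels per kilobase of feature place these genes beside each other. In W34/70 9.7 in minimal medium the highest member was RPB10 at 1338 ± 295 CPM per kb, followed by RPO26 at 875 ± 209 and RPC10 at 782 ± 136, and the lowest were RPO31 at 25.4 ± 1.58, RPB2 at 45.6 ± 7.04 and RPO21 at 46.4 ± 4.43 (SD, n = 3 each). RPO26 and RPC10 lay within each other's spread, as did RPB2 and RPO21. The highest members named are short features (213 bases for RPB10 and RPC10) and the lowest are long ones (3675 bases for RPB2). Whether length bears on these levels beyond the division by it was not tested. On day 2 the highest there were RPB8 at 320.2 ± 45.2 and RPB7 at 318 ± 68.1, which did not differ beyond their spread. In CBS1538 11.1 on day 2 the highest was RPB7 at 302 ± 52.0 CPM per kb and RPO21 was at 158 ± 20.7.

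The mean over the subunits of polymerase I alone was 185 ± 12.7 CPM per kb in minimal medium, 71.8 ± 10.2 on day 4 and 74.6 ± 8.75 on day 2 in W34/70 9.7, and 82.6 ± 1.49, 41.5 ± 3.25 and 32.3 ± 3.69 in the same conditions of CBS1538 11.1 (SD, n = 3 each). For polymerase III alone it was 107 ± 4.65, 43.9 ± 6.69 and 33.1 ± 4.38 in W34/70 9.7 and 44.1 ± 6.07, 20.2 ± 2.10 and 23.2 ± 2.45 in CBS1538 11.1. For polymerase II alone it was 164 ± 9.67, 108 ± 5.36 and 116 ± 8.21 in W34/70 9.7 and 144 ± 9.05, 118 ± 8.64 and 125 ± 4.32 in CBS1538 11.1. The ratio of polymerase I to polymerase II means within a library was thus 1.13 ± 0.0887 in minimal medium, 0.662 ± 0.0615 on day 4 and 0.646 ± 0.100 on day 2 in W34/70 9.7, and 0.575 ± 0.0371, 0.352 ± 0.0485 and 0.258 ± 0.0216 in CBS1538 11.1. These ratios are given without a test, because the members were chosen with results of these data known. The means and ratios also rest on the same division by feature length.

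**Figure D3:**
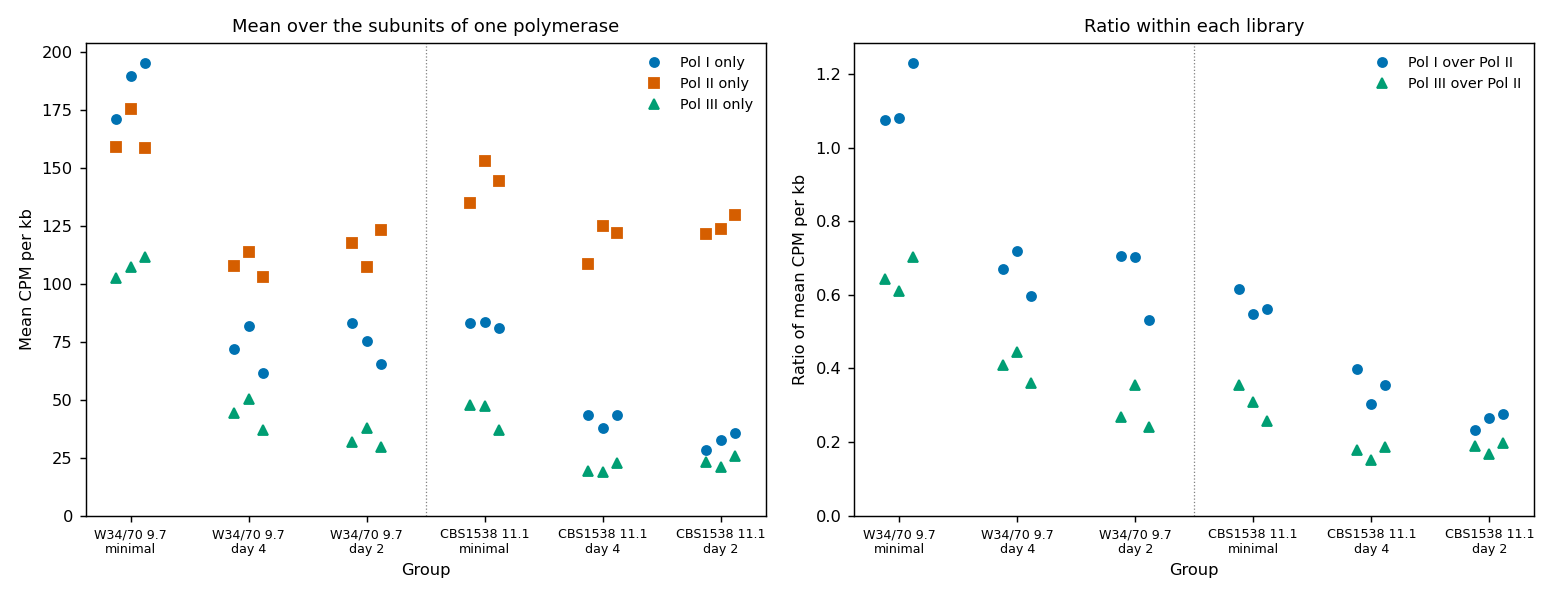
Left, mean CPM per kb (y axis) over the subunits of polymerase I, II or III alone in each library (points), by group (x axis). Right, the ratio of the polymerase I and polymerase III means to the polymerase II mean in the same library, where polymerase I over II averaged 1.13 in minimal medium of W34/70 9.7 and 0.258 on day 2 of CBS1538 11.1.

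Within the wort fermentation the members moved in both directions. In W34/70 9.7, 11 members were called higher and 5 lower on day 4 than on day 2 (20.7% and 17% of all gene names), with a members' median of 0.37 and an overall median of 0.07. The share of members called lower thus lay near that of all gene names. The higher genes included RPB5 (1.94 (SE 0.28, edgeR adjusted p = 0.000115)), RPC11 (1.86) and RPA43 (1.38), and the lower ones were RPA14 (-1.48 (SE 0.20, edgeR adjusted p = 8.74e-05)), RPO21 (-0.89), RPA190 (-0.62), RPB7 (-0.55) and RPA135 (-0.50). This split rests on the scaling: with library totals the median of all gene names was 0.52, 85.8% of all calls were higher in place of 54.9%, and 17 members were called higher and 1 lower. With the length trend removed 8 were called higher and 7 lower (18.4% and 20.7% of all gene names), and the members' median was 0.07. The share called lower again lay near that of all gene names. In a fit of the 2 groups alone 9 were called higher and 1 lower, and without day 4 replicate 2 the members called numbered 10 in all. The falls of RPA190, RPA135 and RPO21 lost their calls with library totals (-0.17, -0.04 and -0.44) and in the fit of the 2 groups alone. RPA190 also lost it with the length trend removed (edgeR adjusted p = 0.0645). The same held without day 2 replicate 1 or 2 or day 4 replicate 2 or 3 (edgeR adjusted p of 0.0576 to 0.123). RPA135 also lost it without day 4 replicate 3 (edgeR adjusted p = 0.0530) and without the 2 libraries lacking S. eubayanus chromosome VII counts (0.0672).

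In CBS1538 11.1, 3 members were called higher on day 4 than on day 2, RPB10 (1.35), RPA12 (1.06) and RPB2 (0.79), and 4 lower, RPC34 (-1.20), RPC53 (-1.17), RPB4 (-0.84) and RPC31 (-0.64). Of all gene names 17.2% were called higher and 14.6% lower, so the members' shares lay near the background. With library totals 66.4% of all calls were higher in place of 54%, and 3 members were called higher and 1 lower. With the length trend removed that share was 41.9%, and 4 members were called higher and 8 lower (13.7% and 19% of all gene names). RPB2 lost its call without day 2 replicate 1 or 3 or any 1 day 4 library (0.60 to 0.73), RPC53 without day 2 replicate 3 (-1.02), and RPB4 without day 4 replicate 1 (-0.70). RPO21 and RPA190, not called in the main fit, were called lower under some other settings. In a fit of the 2 groups alone RPO21 gave -0.62 (edgeR adjusted p = 0.0125) and RPA190 -0.51 (edgeR adjusted p = 0.0233). DESeq2 gave -0.64 for RPO21 (adjusted p = 0.0286).

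The test of the change itself between strains called few members, at shares near or below those of all gene names. For minimal medium against day 2 it called 4 members with a larger change in W34/70 9.7 (RPB9, RPB5, RPC11 and RPA43) and 1 with a smaller one (RPA14), where 12.4% and 16.4% of all gene names were called. RPB5 differed by 2.17 (SE 0.40, edgeR adjusted p = 0.000561), RPC11 by 1.67 (SE 0.48, edgeR adjusted p = 0.0141) and RPA43 by 1.38 (SE 0.36, edgeR adjusted p = 0.00775). RPC11 was not called without CBS1538 11.1 day 2 replicate 3 (1.06, edgeR adjusted p = 0.0858). For minimal medium against day 4, 3 members had a larger change in W34/70 9.7 (RPB9, RPB10 and RPA12) and 1 a smaller one (RPA14), with 10.5% and 13.7% of all gene names called. The calls of RPB10, RPA12 and RPA14 there were lost in most fits with 1 library of either strain left out. All were also lost with library totals (edgeR adjusted p of 0.0936, 0.0890 and 0.0522), with the replicate block and without the 2 libraries lacking S. eubayanus chromosome VII counts. For day 4 against day 2 the calls were RPB5 (1.82) and RPA14 (-1.28), with 5.32% and 5.35% of all gene names called. With library totals the share of larger changes in W34/70 9.7 among all calls was 60.4% in place of 43% (minimal medium against day 2) and 81.5% in place of 49.9% (day 4 against day 2), and the members called larger and smaller numbered 5 and 1, and 4 and 1.

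In levels, more subunits were called higher than lower in W34/70 9.7 relative to CBS1538 11.1. In minimal medium 20 were called higher and 1 lower (41% and 28.4% of all gene names), on day 4 19 higher and 4 lower (41.7% and 26.6%), and on day 2 15 higher and 2 lower (38.5% and 23.4%). The members' medians were 0.89, 0.95 and 0.57, and those of all gene names were 0.26, 0.30 and 0.26, so the members' values include a shift of all gene names. With library totals 22 members were called higher and 1 lower in minimal medium, 21 and 1 on day 4, and 10 and 2 on day 2. With the length trend of each library removed the counts were 17 and 5 in minimal medium (35.9% and 32.5% of all gene names). They were 13 and 5 on day 4 (38% and 30.9%) and 10 and 5 on day 2 (33.1% and 29.1%). The members' medians were then 0.53, 0.35 and 0.09, and those of all gene names 0.08, 0.13 and 0.06. After that removal the share of members called higher lay near that of all gene names on both wort days. RPB5 differed most in minimal medium (3.35 (SE 0.29, edgeR adjusted p = 1.96e-08)) and on day 4 (3.00), and RPA14 on day 2 (2.94). The lower genes were RPO21 in minimal medium (-0.85), RPB9, RPO31, RPO21 and RPB7 on day 4 (-0.61, -0.89, -0.61 and -0.55) and RPB9 and RPO31 on day 2 (-1.57 and -0.59). Several of the smaller ones were not called under other settings: RPB9 and RPO21 on day 4 with library totals (-0.42 each), RPO21 on day 4 also after the length trend was removed (-0.33), and RPO31 on day 2 after that removal (-0.26). RPB9 on day 4 was also not called without the 2 W34/70 9.7 libraries lacking S. eubayanus chromosome VII counts (-0.50, edgeR adjusted p = 0.0665). In a fit of the 2 compared groups alone RPO21 on day 4 (-0.63, edgeR adjusted p = 0.0693) and RPO31 on day 2 (-0.64, edgeR adjusted p = 0.0520) were not called.

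The 2 strains differ in which copies of these genes gave counts. In W34/70 9.7, 28 S. cerevisiae and 29 S. eubayanus copies had over 10 counts in each condition. The S. cerevisiae copies of RPC82 and RPO26, which both lie on chromosome XVI, and the S. eubayanus copy of RPC25, on chromosome XI, were the ones without. In CBS1538 11.1 all 30 S. eubayanus copies had over 10 counts, and 12 S. cerevisiae copies did in minimal medium and 11 on day 4 and on day 2. The median S. cerevisiae share of a member's counts was 70.1% in minimal medium, 72.1% on day 4 and 63.7% on day 2 in W34/70 9.7. In CBS1538 11.1 it was under 1% for 19 of the 30 members in each condition, RPA190, RPO21, RPO31 and RPB5 among them. Reads that match both copies may be counted on either, since their handling is not given in the sources used here.

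**Figure D4:**
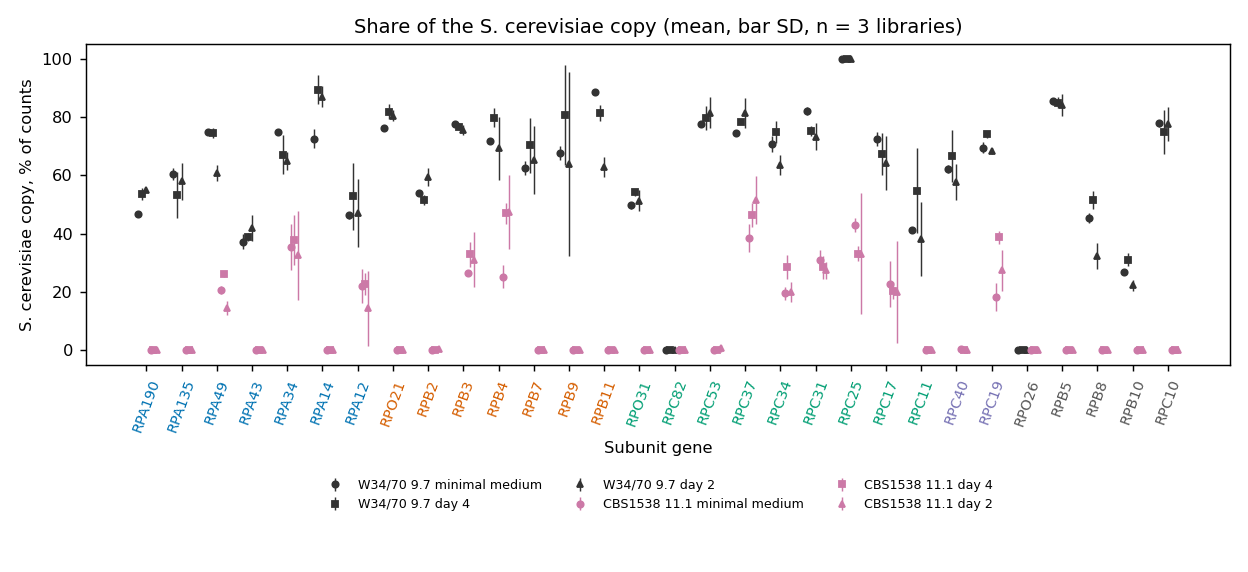
Share of a member's counts on its S. cerevisiae copy (y axis, percent; mean and SD of 3 libraries) for the 30 subunit genes (x axis) in W34/70 9.7 (dark) and CBS1538 11.1 (pink), by condition (symbol). In CBS1538 11.1, 19 genes lie under 1%, and in W34/70 9.7 RPB11 lies at 88.5% in minimal medium and 62.7% on day 2.

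Counted apart, with TMM factors of that table so that the CPM of copies do not add up to the values above, 42 copies in W34/70 9.7 were called higher and 4 lower in minimal medium than on day 2, against 28.8% and 27% of all features. The other counts there were 39 higher and 0 lower against day 4 (20.2% and 23% of all), and 15 higher and 7 lower on day 4 than on day 2 (16.1% and 12.5%). CBS1538 11.1 had 30 copies higher and 2 lower in minimal medium than on day 2 (13.7% and 15.4%), 25 higher and 0 lower than on day 4 (13.4% and 14.8%), and 3 in each direction between day 4 and day 2 (7.85% and 8.21%). That last split was 3 higher and 9 lower with DESeq2 and with the length trend removed, and 2 and 6 with DESeq2's size factors. For the counts of 0 lower by edgeR, 1 copy in each strain was lower at an unadjusted p under 0.05, and DESeq2 called 1 lower in W34/70 9.7 and 0 in CBS1538 11.1. With library totals the counts higher and lower against day 2 were 44 and 3 (minimal medium) and 25 and 3 (day 4) in W34/70 9.7, and 31 and 1 and 3 and 1 in CBS1538 11.1, where 66.2%, 85.3%, 58.0% and 66.6% of all calls were higher in place of 51.6%, 56.2%, 47.0% and 48.9%. In CBS1538 11.1, 22 of 30 S. eubayanus copies and 8 of 28 S. cerevisiae copies tested were called higher against day 2. Only 12 S. cerevisiae copies had over 10 counts there in minimal medium and 11 on day 2, and the part of this in the split was not tested. In W34/70 9.7, 21 of 30 S. eubayanus and 21 of 28 S. cerevisiae copies were called higher. Both copies of RPB5 rose there. Its S. cerevisiae copy averaged 245 ± 12.1 CPM in minimal medium and 18.9 ± 5.82 CPM on day 2, and its S. eubayanus copy 42.2 ± 3.83 and 3.36 ± 0.0283 CPM (SD, n = 3 each), with changes of 3.69 (SE 0.29, edgeR adjusted p = 6.13e-06) and 3.65 (SE 0.34, edgeR adjusted p = 6.16e-07). For CBS1538 11.1 the S. eubayanus copy, the sole one with counts, averaged 17.8 ± 4.55 CPM in minimal medium and 6.76 ± 2.57 CPM on day 2, a change of 1.40 (SE 0.31, edgeR adjusted p = 0.00272). RPB11 was the member whose copies were called in opposite directions. Its S. cerevisiae copy had 63.5, 81.9 and 62.8 CPM in minimal medium, against 29.7, 32.3 and 27.7 CPM on day 4 and 35.0, 35.9 and 22.5 CPM on day 2. Its S. eubayanus copy had 8.57, 10.5 and 8.01 CPM in minimal medium, against 6.87, 6.14 and 7.51 CPM on day 4 and 18.2, 20.8 and 15.6 CPM on day 2. Minimal medium against day 2 gave 1.16 (SE 0.23, edgeR adjusted p = 0.00212) for the S. cerevisiae copy and -1.01 (SE 0.26, edgeR adjusted p = 0.00399) for the S. eubayanus copy. In CBS1538 11.1, which has counts on the S. eubayanus copy alone, that copy was higher in minimal medium than on day 2 by 1.37 (SE 0.26, edgeR adjusted p = 0.000868).

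The change of the S. cerevisiae copy minus that of the S. eubayanus copy was tested in W34/70 9.7 for the 27 members with at least 45 counts on each copy, a test chosen after the RPB11 copies had been seen. For minimal medium against day 2, 8 of the 27 members were called, where 27.1% of the 4065 genes tested were. The members' share thus lay near that of all genes. The S. cerevisiae copy gained relative to the other in RPB11 (2.08, edgeR adjusted p = 0.000718), RPA49 (0.82), RPB8 (0.72) and RPC31 (0.62), and lost in RPA14 (-1.47, edgeR adjusted p = 0.0195), RPA190 (-0.57), RPO21 (-0.46) and RPB2 (-0.43). The count was 3 to 7 when 1 library was left out, and 3 without minimal-medium replicate 1 or 3. RPB11 (2.00 to 2.14), RPA49 and RPB8 were called in each of the 9 fits with 1 library left out. RPA14 and RPA190 were called in 5 of them, RPC31 and RPO21 in 3, and RPB2 in 1. For minimal medium against day 4 the calls were RPA14 (-1.70) and RPB11 (0.88), a smaller share of the 27 members than the 12.5% of all genes called. For day 4 against day 2 they were RPB11 (1.21), RPB8 (1.01) and RPB2 (-0.63), with 5.46% of all. Against day 4, RPB11 and RPA14 both lost their calls without any 1 minimal-medium library (edgeR adjusted p of 0.0585 to 0.0674 for RPB11), and RPA14 also without day 4 replicate 1 or 2 (0.0679 to 0.0976 over these fits). For day 4 against day 2, RPB11 and RPB8 lost theirs without day 4 replicate 2 (edgeR adjusted p = 0.0572 and 0.0579), and RPB2 was called in 1 of the 9 fits.

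Gene length went with the change over all genes. Spearman's rho between length and the log2 fold change of minimal medium against day 2, across 6633 gene names that are not independent replicates and share the same libraries, was -0.16 in W34/70 9.7 and -0.24 in CBS1538 11.1, and over the 30 members it was -0.49 and -0.55. The 6 members of at least 1500 bases, RPA190, RPA135, RPO21, RPB2, RPO31 and RPC82, had a median log2 fold change of 0.49 in W34/70 9.7 and 0.50 in CBS1538 11.1, and the 24 shorter ones 1.79 and 1.49. The length trend of each library was then removed, an alternative chosen after it was seen. In W34/70 9.7, 22 members were called higher and 3 lower (28.5% and 36.3% of all gene names). In CBS1538 11.1 the counts were 23 and 3 (22.4% and 25%). RPO21 then changed by -1.09 in W34/70 9.7 and -0.48 in CBS1538 11.1, and RPA190 by 0.87 and 1.09.

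**Figure D5:**
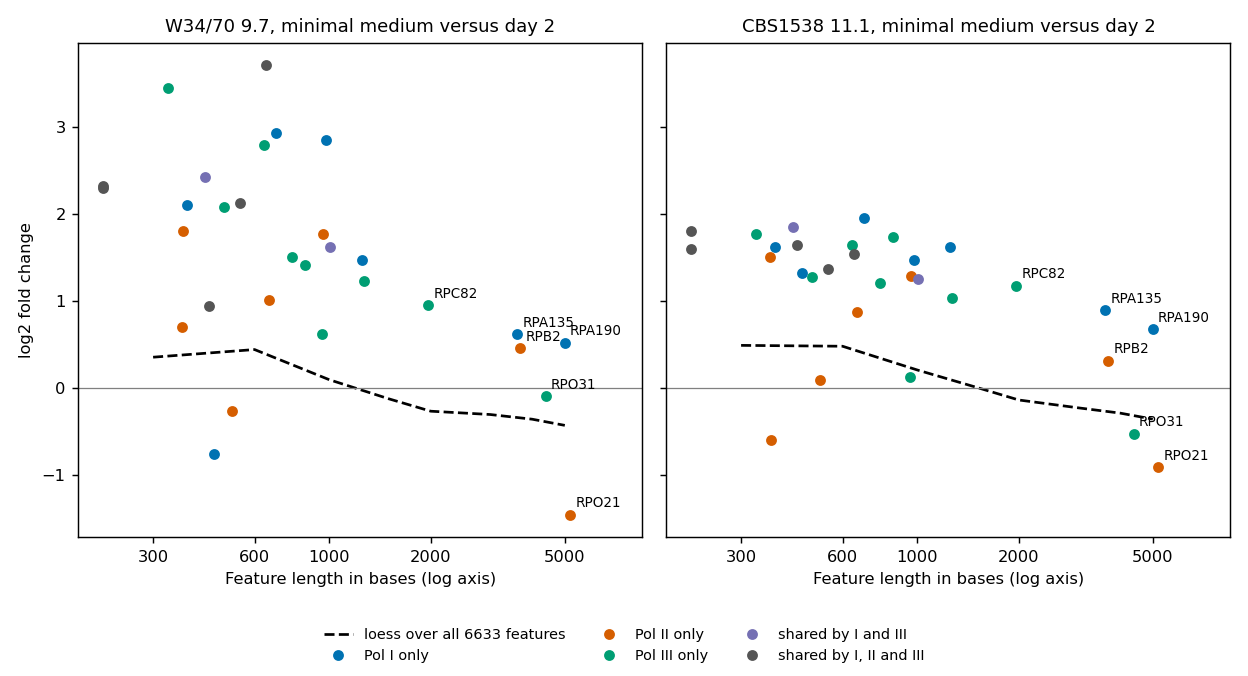
Log2 fold change of minimal medium against day 2 (y axis) by feature length in bases (x axis, log scale) for the 30 subunit genes in W34/70 9.7 (left) and CBS1538 11.1 (right), coloured by polymerase, with the loess trend over all 6633 gene names (dashed). RPO21 lies at -1.46 and -0.91, below the trend in both strains, and 24 members are shorter than 1500 bases.

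Other genes of the transcription machinery were read as lists in the same fit, where 32.8% and 32.1% of all gene names were called higher and lower against day 2 in W34/70 9.7 and 27.3% and 21.2% in CBS1538 11.1. Against day 2, 8 of 10 polymerase II elongation factors were called higher in W34/70 9.7 and 5 in CBS1538 11.1. They included ELF1 (2.43 and 1.83, W34/70 9.7 before CBS1538 11.1) and the Paf1 complex genes PAF1 (1.95 and 1.19) and LEO1 (1.35 and 1.75), all called. Of 18 general transcription factors of polymerase II, 9 were called higher and 1 lower in W34/70 9.7 and 6 higher and 2 lower in CBS1538 11.1. Of 10 polymerase I initiation and rDNA factors, 3 were called in each direction in W34/70 9.7, and 2 higher and 3 lower in CBS1538 11.1. RRN3, which makes polymerase I competent for initiation, gave 0.37 in W34/70 9.7, not called, and -1.32 in CBS1538 11.1, called.

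Of 9 polymerase III factors, 3 were called higher and 1 lower in W34/70 9.7 and 2 were called higher in CBS1538 11.1. TFC4, a TFIIIC subunit, gave 1.57 and 1.89, both called, and MAF1, the repressor of polymerase III, gave -0.22 and -0.29, neither called. Of 8 assembly and import factors, 5 were called higher in W34/70 9.7 and 3 in CBS1538 11.1. The mitochondrial polymerase RPO41 gave -0.43 in W34/70 9.7, not called, and -0.52 in CBS1538 11.1, called lower.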

How the data were processed

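The authors deposited raw read counts per annotated feature for 18 libraries of total RNA, read as 150 bp pairs, on a joint table of S. cerevisiae and S. eubayanus features with no normalisation. STAR, SAMtools, featureCounts and DESeq2 are named in the submitters' processing notes, as is the S. cerevisiae build R64. Strand use, multi-mapping, the S. eubayanus assembly and versions were not given in the sources. All per-sample columns were used (0 left out) and 0 features lacked a name.

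Counts of features with the same gene name were summed, and copies were also kept apart. One fit of edgeR 4.0.16 (R 4.3.3, limma 3.58.1) used all 18 libraries in 6 groups of 3, TMM factors, filterByExpr (minimum count 10, minimum total 15) and the quasi-likelihood test with Benjamini-Hochberg adjustment, called at 0.05. It kept 6633 of 7568 gene names, and 10894 of 11979 features with copies apart. Depth ran from 5266324 to 19467656 counts, so the lowest CPM values rest on few counts in the shallowest library. The labels call the cultures triplicates, which were not stated to come from separate starting cultures, so p-values measure the spread between these libraries. No replicate pair was a duplicate (chi-square per degree of freedom of at least 17.1). The script was tested on simulated counts.

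The copy test in W34/70 9.7 took genes with 1 copy in each sub-genome and at least 45 counts on each, fitted copy by condition with library as a block. The length alternative removed a loess (span 0.4, degree 1) of each library's deviation on log length. Alternatives were library totals, DESeq2 1.42.0 and its size factors, no filter, compared groups only, a replicate block, leaving out single libraries and leaving out the 2 libraries without S. eubayanus chromosome VII counts. Members, classes and lists were chosen with earlier results of these data known. Named genes were the core subunits RPA190, RPA135, RPO21, RPB2, RPO31, RPC82, RPC40, RPC19, RPO26 and RPB5, plus up to 3 called members with the largest rise and 3 with the largest fall per comparison among those with at least 10 CPM in the higher group. Copies were to be named where they were called in opposite directions or where 1 alone was called, and the second case is covered by counts. Gene names and coordinates are those of the deposited table, and promoter motifs were not analysed here. Figures were drawn with matplotlib 3.10.9.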

Additional observations from a re-analysis of the deposited data

Results flagged for a closer look

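The change between conditions differed between the strains for 11 results over 7 subunit genes, by the edgeR interaction test with an adjusted p under 0.05. For minimal medium against day 2 the difference (W34/70 9.7 minus CBS1538 11.1, log2 scale) was 2.40 for RPB9, 2.17 for RPB5, 1.67 for RPC11, 1.38 for RPA43 and -2.08 for RPA14. For minimal medium against day 4 it was 1.43 for RPB9, 0.97 for RPB10, 0.96 for RPA12 and -0.80 for RPA14. For day 4 against day 2 it was 1.82 for RPB5 and -1.28 for RPA14. Of all gene names, 12.4% and 16.4% were called with a positive and a negative difference in the first comparison. The shares were 10.5% and 13.7% in the second and 5.32% and 5.35% in the third. Among the 30 members the shares called lay near or below these in each comparison. The calls of RPB10, RPA12 and RPA14 against day 4 were lost with library totals and in most fits with 1 library left out. The S. cerevisiae copies of RPB5, RPB9, RPB10, RPC11, RPA43 and RPA14 held under 1% of the gene's counts in CBS1538 11.1, and the part of copy content in these differences was not tested. The day 2 comparisons use the CBS1538 11.1 libraries whose labels disagree on the strain.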

How the results depend on the processing

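The number of called members kept within 1.5 times of its value for minimal medium against wort in both strains under every alternative run. Counts that moved further were those of day 4 against day 2 and of the strain difference in the change. For CBS1538 11.1 day 4 against day 2, 7 calls became 4 with library totals and 12 with the length trend removed, and with copies apart 6 became 12 with DESeq2, 13 without the 2 libraries lacking S. eubayanus chromosome VII counts and 12 with the length trend removed. For W34/70 9.7 day 4 against day 2, 16 became 10 in a fit of the compared groups alone. For the strain difference, 2 became 5 with library totals and 6 with DESeq2 or the length trend removed (day 4 against day 2), 5 became 8 with the length trend removed (minimal medium against day 2), and 4 became 1 with library totals and 2 without the 2 libraries (minimal medium against day 4). Copy-share calls for day 4 against day 2 went to 6 without the 2 libraries, against 3 with all libraries. The cause was not tested.

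Leaving out 1 library gave 24 to 28 and 25 to 27 called members in W34/70 9.7 (minimal medium against day 2 and day 4), 24 to 25 and 21 to 25 in CBS1538 11.1, and 10 to 16 and 5 to 8 for day 4 against day 2. The strain difference ranged over 1 to 4 (minimal medium against day 4), 4 to 6 (against day 2) and 2 to 5 (day 4 against day 2), copies apart in CBS1538 11.1 over 3 to 10 for day 4 against day 2, and copy shares over 3 to 7, 0 to 2 and 0 to 4. The lowest counts came without W34/70 9.7 day 4 replicate 2 (10), without CBS1538 11.1 day 4 replicate 1 or 2 (3), and the highest of copies apart without CBS1538 11.1 day 2 replicate 3 (10). Of 684 such values of named genes 597 kept direction and call, 74 lost the call, 8 gained it and 5 reversed uncalled: in CBS1538 11.1 day 4 against day 2 RPO31 (-0.37 to 0.047), RPB5 (-0.18 to 0.29) and RPC19 (-0.063 to 0.29), and in W34/70 9.7, minimal medium, RPO31 against day 2 (-0.27 to 0.029) and RPB2 against day 4 (-0.37 to 0.11), each with its range over the libraries left out.

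Of 832 values of named genes under the other alternatives 750 kept direction and call, 43 lost it, 28 gained it and 11 reversed uncalled. With library totals these were RPO31 (0.016) and RPC82 (0.24) for W34/70 9.7 day 4 against day 2 and RPO31 (0.26) for minimal medium against day 2. Without the 2 libraries they were RPO31 (0.027, minimal medium against day 2) and RPB2 (0.15, against day 4) in W34/70 9.7. With the length trend removed they were RPC19 (-0.026, day 4 against day 2) and RPO31 (0.22, minimal medium against day 2) in W34/70 9.7, and RPO31 (0.13), RPC40 (-0.029), RPC19 (-0.26) and RPB5 (-0.19) in CBS1538 11.1, day 4 against day 2.

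Replicate numbers gave no steady pairing. Same-numbered libraries of day 4 and day 2 correlated at -0.64 to 0.52 in W34/70 9.7 and at 0.078 to 0.208 in CBS1538 11.1. Those of minimal medium and wort correlated at -0.27 to 0.072, and not every library correlated best with its own number. In W34/70 9.7, day 4 replicate 1 correlated with day 2 replicate 2 at 0.791, and these are the 2 libraries lacking S. eubayanus chromosome VII counts. Day 4 replicate 2 correlated best with day 2 replicate 1 (0.553) and replicate 3 with replicate 3 (0.518). Wort libraries may thus be linked under other numbers. That was not tested, and the fit treated them as independent. With the replicate block the strain difference for minimal medium against day 4 had 1 call in place of 4, and copies apart in CBS1538 11.1 day 4 against day 2 had 3 in place of 6. The other counts stayed within 1.5 times. RPC25, the lowest member on day 2 of CBS1538 11.1, averaged 4.84 CPM there, and such levels have the largest counting error.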
